A study of Mus musculus with 16 samples.

Results

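The GIMAP genes encode GTPases of immunity-associated proteins, and 8 of the 56748 genes in the deposited tables were chosen by name for this account: Gimap1, Gimap3, Gimap4, Gimap5, Gimap6, Gimap7, Gimap8 and Gimap9. All 8 had enough counts to be tested in every comparison, with between 1094 and 37031 counts per gene and sample. Loss of HP1α or of HP1γ changed none of them past the threshold in memory CD4+ T cells. Between the 2 mouse lines, Gimap1 was higher and Gimap9 lower in HP1α WT than in HP1γ WT, where 12.8% of all genes tested were called, and both calls were lost when certain single samples were left out. Between the KO groups 6 of the 8 genes were higher and 1 was lower in the HP1α line, where 32.8% of all genes were called. Only the calls of Gimap1, Gimap3 and Gimap8 held there in all 16 alternative analyses.

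GIMAP proteins are GTP-binding proteins of lymphocytes, and several of them sit in intracellular membranes. Their genes lie in a single tight cluster, and the family is known for its part in lymphocyte survival. Gimap5 encodes a lysosomal protein whose loss causes lymphopenia in rodents, and Gimap3 is its closest relative in the mouse. Gimap1 is needed for the survival of mature T and B cells, the protein of Gimap4 has been tied to the speed of T cell death, and that of Gimap6 to autophagy. The protein of Gimap7 is a GTPase that works as a dimer, and that of Gimap8 carries several GTP-binding domains. HP1α (encoded by Cbx5) and HP1γ (encoded by Cbx3) are chromatin proteins that bind methylated histone H3 lysine 9, a mark of heterochromatin.

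RNA-Seq was performed on CD4+ memory T cells of young adult male mice of a mixed 129/Sv and C57BL/6 background, sorted from the spleen by surface markers that included high CD44 and little or no CD25. Each line gave 4 KO samples and 4 samples of WT littermates. In the HP1α line the floxed Hp1a sequence had been removed by CMV-cre, which acts in all tissues, and Hp1a-/- mice were compared with Hp1a+/+ littermates from heterozygous crosses. In the HP1γ line KO and WT mice were both homozygous for floxed Hp1g and the KO also carried Cd4-cre, which acts in T cells from the thymus onwards, so an effect of Cre cannot be told apart from that of HP1γ loss. The 2 lines also differ in their breeding and possibly in their genetic background and handling, so that any difference between lines cannot be told apart from these. The labels do not say that the 4 samples of a group came from different mice, and p-values measure the spread between these samples.

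The 8 genes spanned 123.7 kb of chromosome 6 on GRCm39 and followed each other in the order Gimap8 (chr6:48624143-48637826), Gimap9 (chr6:48653049-48656137), Gimap4 (chr6:48661479-48670389), Gimap6 (chr6:48678349-48685339), Gimap7 (chr6:48695555-48701570), Gimap1 (chr6:48715947-48720843), Gimap5 (chr6:48723104-48731144) and Gimap3 (chr6:48741395-48747826). Gimap6 and Gimap3 are on the minus strand and the other 6 genes on the plus strand. The cluster also holds Gimap1os, an antisense lncRNA that overlaps Gimap1, and Gm28053, an annotated read-through gene that spans Gimap7, Gimap1 and part of Gimap5. Cbx3 lies 2.7 Mb beyond the end of the cluster on the same chromosome. The floxed Hp1g allele of the HP1γ line, for which its KO and WT mice were both homozygous, is therefore on the chromosome of the cluster. Any part of this in differences between the lines was not tested.

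The 250 bases before the transcript start are shown for 3 genes, because Gimap1 was the gene with the largest difference between the lines, Gimap9 differed in the opposite direction, and Gimap8, which was higher in HP1α KO than in HP1γ KO, is an example of a window with neither of the marked motifs. The sequences are GRCm39, 5′ to 3′ on the strand of the gene (plus for all 3), for Gimap1 chr6:48715697-48715946, for Gimap9 chr6:48652799-48653048 and for Gimap8 chr6:48623893-48624142. Capitals mark the RUNX core TGTGGT and the ETS core AGGAAG, either as such or as their reverse complements.
Gimap1: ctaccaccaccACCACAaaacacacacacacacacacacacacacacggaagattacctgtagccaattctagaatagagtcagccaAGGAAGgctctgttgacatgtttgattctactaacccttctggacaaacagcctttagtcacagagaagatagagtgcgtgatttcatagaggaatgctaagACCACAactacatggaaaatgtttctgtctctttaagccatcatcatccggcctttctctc
Gimap9: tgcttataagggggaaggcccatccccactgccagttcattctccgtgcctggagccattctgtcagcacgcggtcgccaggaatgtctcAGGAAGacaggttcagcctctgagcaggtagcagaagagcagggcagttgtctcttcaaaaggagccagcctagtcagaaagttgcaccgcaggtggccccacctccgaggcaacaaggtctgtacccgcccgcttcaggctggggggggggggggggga
Gimap8: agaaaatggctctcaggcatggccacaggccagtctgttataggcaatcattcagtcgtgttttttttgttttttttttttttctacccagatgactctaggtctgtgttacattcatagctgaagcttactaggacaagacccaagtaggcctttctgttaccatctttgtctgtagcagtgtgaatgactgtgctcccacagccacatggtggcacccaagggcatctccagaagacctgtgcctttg
The window of Gimap1 held 2 RUNX cores and 1 ETS core, and that of Gimap9 held 1 ETS core. Over the family, 6 of 8 windows held the ETS core, against 28.9% of the windows of 21770 protein-coding genes, and 3 of 8 (Gimap1, Gimap4 and Gimap7) held the RUNX core, against 13.0%. The windows of Gimap6 and Gimap8 held neither. A KLF core (CCACCC, both strands) was in 3 of 8 windows against 28.6% of all, and a GATA core (AGATAA), a TCF/LEF core (TCAAAG) and an Ikaros core (TGGGAA) were in 0 of 8, against 9.6%, 14.1% and 22.7%. Gimap9 had 8 CpG in its window, which is the median over all genes, whereas the other 7 windows had between 1 and 4. All members but Gimap9 and Gimap4 had at most 3 CpG, as did 30.6% of the windows of all protein-coding genes. These matches describe the letters of the window and are not binding sites.

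Per transcript length (TPM, whose total is fixed), the family took between 0.218% and 0.322% of the transcripts. Gimap6 was the most abundant member at 1005 ± 87.4 TPM (SD, n = 16) and ranked 156 among all genes by mean TPM. It exceeded Gimap4 in 16 of 16 samples, and the ranges of both genes did not overlap. Gimap4 (543 ± 85 TPM) and Gimap3 (519 ± 106 TPM) came next and were not separated, as Gimap4 was the higher in 10 of 16 samples. Both stood apart from Gimap5 (198 ± 13.4 TPM), which was the higher of the pair with Gimap1 (168 ± 37.5 TPM) in 12 of 16 samples. Gimap8 (137 ± 23.9 TPM), Gimap9 (99.4 ± 15.8 TPM) and Gimap7 (75.6 ± 16.8 TPM) followed, each with a range that overlapped its neighbours in the order. Gimap7 was the least abundant member and still ranked 2218 among all genes.

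**Figure D1:**
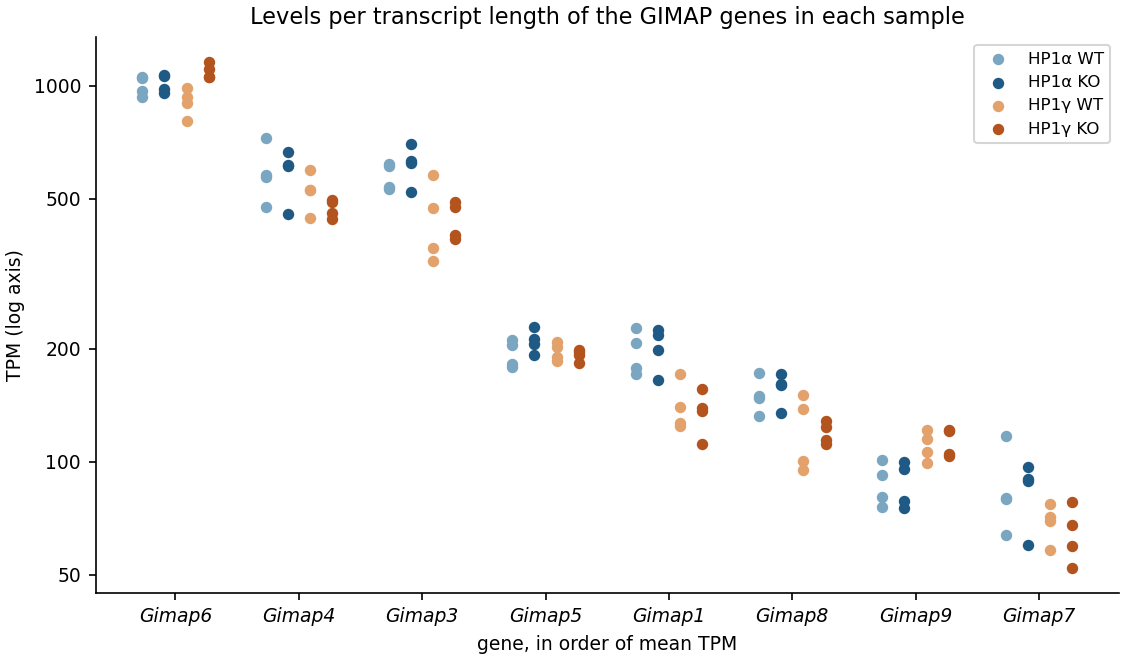
TPM on a log axis for the 8 GIMAP genes in order of their mean, with 1 point per sample and the 4 groups side by side in colour. Gimap6 lies above all other members in all 16 samples, and the points of Gimap9 are on average higher in the HP1γ line.

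The identity of the cells was checked on markers. The 6 CD4 T cell markers summed to between 3316 and 3845 CPM (counts scaled to library size after TMM normalization), while B cell markers did not exceed 24.5 CPM in sum and CD8 markers 18.5 CPM. Endothelial cells also express GIMAP genes, and their defining genes Cdh5, Kdr and Vwf were at most 8.27, 2.8 and 0.902 CPM. Pecam1, which T cells express as well, was between 110.4 and 142.1 CPM. The globin and platelet markers varied from 10.2 to 716 CPM and were highest in HP1γ KO (51.6 to 716 CPM). Markers of myeloid cells (29.5 to 119 CPM), NK cells (47.7 to 81.2 CPM) and regulatory T cells (162 to 346 CPM) overlapped between the 4 groups. Between the lines Cd28 (log2 fold change -0.60 between the WT and -0.70 between the KO groups) and Cd44 (-0.35 and -0.32) were lower in the HP1α line, Eomes (-0.68) was lower in HP1α WT, and Cd3d (0.27) was higher and the globin genes Hba-a1 (-2.83) and Hbb-bs (-2.85) were lower in HP1α KO, all called by edgeR. In bulk RNA, fewer cells of a kind and less RNA per cell cannot be told apart, and the part of these markers in the results was not tested. The first principal component (27.6% of the variance) separated the lines, with the sample HP1γ WT 4 at -0.006 closest to the HP1α samples (0.115 to 0.323) among the HP1γ samples (-0.435 to -0.006).

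In the HP1α line, the question was whether the loss of HP1α alters the family. Cbx5, the targeted gene, had 28.7, 27.6, 23.0 and 29.0 CPM in the KO samples, below 37.8, 54.0, 35.7 and 33.8 CPM in their WT littermates. The groups did not overlap, but the log2 fold change of -0.58 (SE 0.145) had an adjusted p of 0.946 in edgeR, and the whole gene is counted, so remaining transcripts need not be intact. For naive CD4+ T cells of this line, not the cells measured here, the paper reports that HP1α was absent. None of the 8 GIMAP genes was called (adjusted p under 0.05), none had an unadjusted p under 0.05 in edgeR, and DESeq2 and limma called none either. The background in this comparison was 0% of 14881 genes called by edgeR (5 genes by DESeq2), and the KO and WT samples of a GIMAP gene overlapped for all 8, against 2.96% of all genes whose groups did not overlap. Gimap3 had 798, 798, 710.3 and 884 CPM in KO and 689, 767, 719.6 and 794 CPM in WT, the largest difference of the family at a log2 fold change of 0.10 (95% interval -0.06 to 0.27, adjusted p = 0.946). Gimap4 had a mean of 546 CPM in both groups. The median log2 fold change was 0.03 over the family and 0.00 over all genes tested. The widest interval was that of Gimap7, from -0.40 to 0.35, and the narrowest was that of Gimap6, from -0.10 to 0.14.

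**Figure D2:**
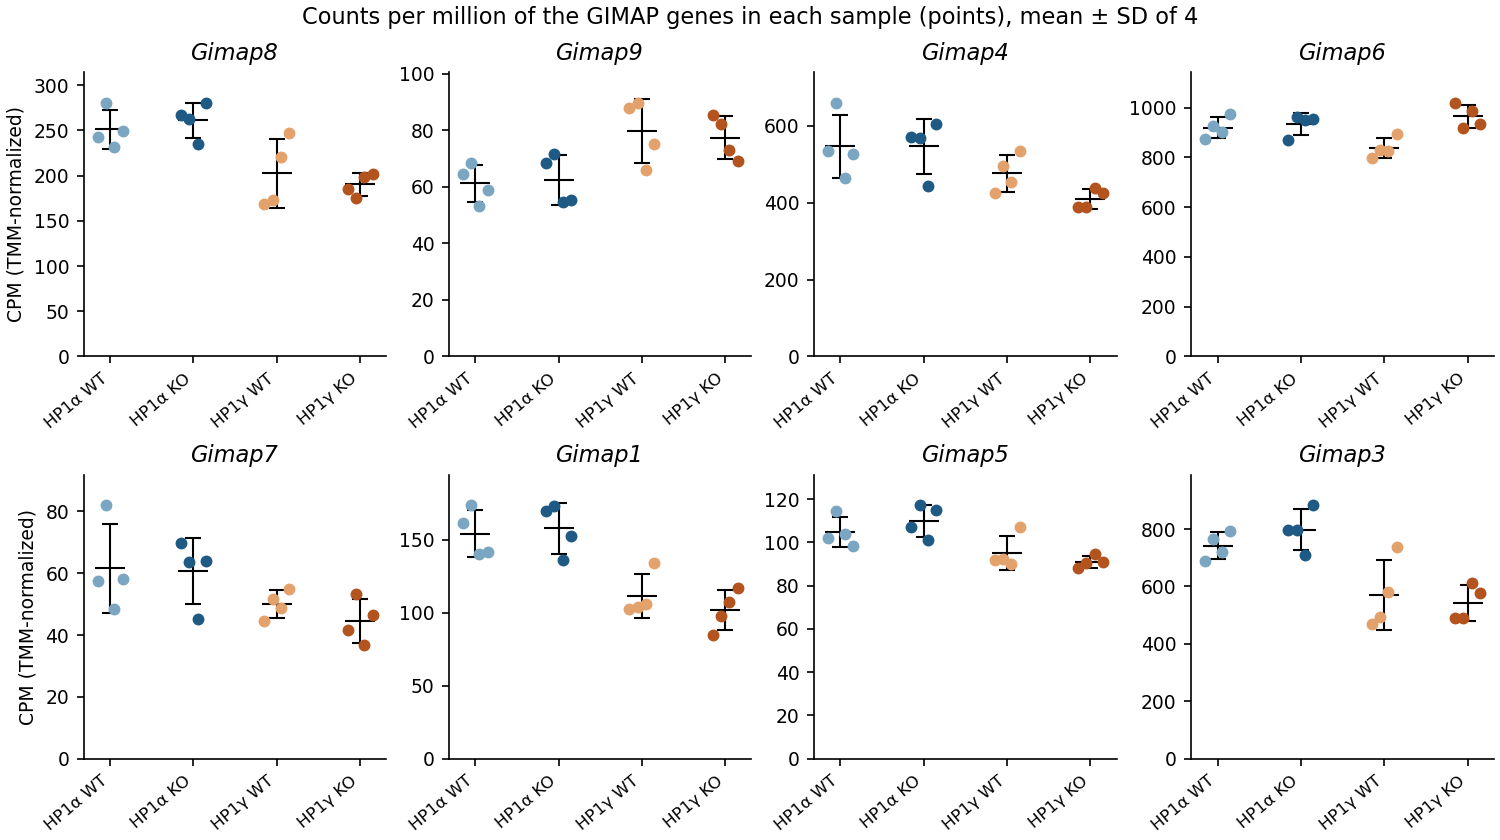
CPM after TMM normalization of each GIMAP gene in the 4 samples of each group (points), with the mean and SD in black and each axis starting at 0. KO and WT points of the HP1α line overlap in all 8 panels, and the HP1α line lies above the HP1γ line for Gimap1 but below it on average for Gimap9.

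In the HP1γ line, Cbx3 fell from 92.5, 90.2, 73.4 and 82.0 CPM in WT to 50.3, 46.3, 45.9 and 47.5 CPM in KO, a log2 fold change of -0.82 (SE 0.079, adjusted p = 0.0015 in edgeR). Here too the whole gene is counted, so remaining transcripts need not be intact. For naive CD4+ T cells, the paper reports that the loss of HP1γ was almost complete. None of the 8 GIMAP genes was called, against 0.327% of 14975 genes, and 2 had an unadjusted p under 0.05, as did 11.9% of all genes. DESeq2 and limma called none. The first of the 2 was Gimap6, with 1019.9, 919, 988 and 935 CPM in KO and 799, 831, 828 and 895 CPM in WT. All 4 KO samples were above all 4 WT samples, which held for 7.1% of all genes in either direction, and the log2 fold change was 0.21 (SE 0.061, 95% interval 0.08 to 0.35) with an adjusted p of 0.251 in edgeR. The second was Gimap4, with 387, 387, 437 and 426 CPM in KO and 425, 494, 452 and 534 CPM in WT. These groups overlapped, and the log2 fold change of -0.21 (SE 0.0805) had an adjusted p of 0.37 in edgeR. The other 6 members had negative log2 fold changes between -0.16 and -0.03, and the family median was -0.07 against 0.00 over all genes. As a share of the TPM of the family, Gimap6 made up between 39.3% and 44.6% in HP1γ KO and between 32.6% and 37.2% in the other 12 samples. This share was looked at after the values were seen and was not tested.

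The effects of both knockouts were then compared with each other in a fit of all 16 samples. No GIMAP gene differed in its response (0.0507% of 15776 genes did), DESeq2 and limma called none, and 1 of the 8, Gimap6, had an unadjusted p under 0.05, as did 9.58% of all genes. For Gimap6 the KO effect in the HP1α line minus that in the HP1γ line was -0.18 on the log2 scale (SE 0.0782, 95% interval -0.35 to -0.02, adjusted p = 0.476 in edgeR). For the other 7 members the difference was between 0.07 and 0.22, all with intervals that included 0.

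WT memory cells of the 2 lines were compared next, a comparison that shares its samples with those above. Gimap1 had 161, 174, 140.2 and 142 CPM in HP1α WT and 103, 104, 106 and 134 CPM in HP1γ WT. All samples of the HP1α line were higher, and the log2 fold change was 0.46 (SE 0.101, 95% interval 0.24 to 0.69, adjusted p = 0.0179 in edgeR). Gimap9 had 64.6, 68.5, 53.3 and 59.0 CPM in HP1α WT and 87.9, 89.8, 65.9 and 75.2 CPM in HP1γ WT. It was lower in the HP1α line with a small overlap of the groups, by a log2 fold change of -0.38 (SE 0.109, 95% interval -0.62 to -0.14, adjusted p = 0.0452 in edgeR). With these, 2 of 8 members were called, against 12.8% of 14804 genes (4.55% higher and 8.25% lower in the HP1α line), and 1 of 8 had groups that did not overlap, against 19.5% of all genes. This share of 2 in 8 rests on few genes and is not read as particular to the family.

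The other 6 members were not called between the WT groups, with log2 fold changes between 0.13 (Gimap6) and 0.38 (Gimap3). Gimap3 had 689, 767, 719.6 and 794 CPM in HP1α WT and 468, 493, 579 and 739 CPM in HP1γ WT. The HP1γ WT 4 sample lay among the HP1α samples for this gene, and the adjusted p was 0.0776 in edgeR. Gimap8 showed the same order, with 243, 281, 231 and 249 CPM against 169, 173, 221 and 248 CPM (log2 fold change 0.31, SE 0.121, adjusted p = 0.118 in edgeR). Without HP1γ WT 4, the log2 fold changes were 0.53 for Gimap3 (adjusted p = 0.00868) and 0.42 for Gimap8 (adjusted p = 0.0331), both called by edgeR. HP1γ WT 4 was the highest sample of its group for both genes, so leaving it out raises the difference. No other omission of 1 sample gave a call of either gene. Adjusted p-values were then 0.105 to 0.199 for Gimap3 and 0.116 to 0.284 for Gimap8 in edgeR. The call of Gimap1 was lost without HP1α WT 1, HP1γ WT 1 or HP1γ WT 2 (adjusted p = 0.0655, 0.0657 and 0.0639 in edgeR), with log2 fold changes of 0.44, 0.43 and 0.43. The call of Gimap9 was lost without any 1 of the samples except HP1γ WT 3, with log2 fold changes between -0.43 and -0.32 and adjusted p-values between 0.0554 and 0.144 in edgeR. DESeq2 called Gimap3 in addition to these 2 genes. With the replicate number as a block, Gimap1 had an adjusted p of 0.065 and 1 member, Gimap9, was called.

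**Figure D3:**
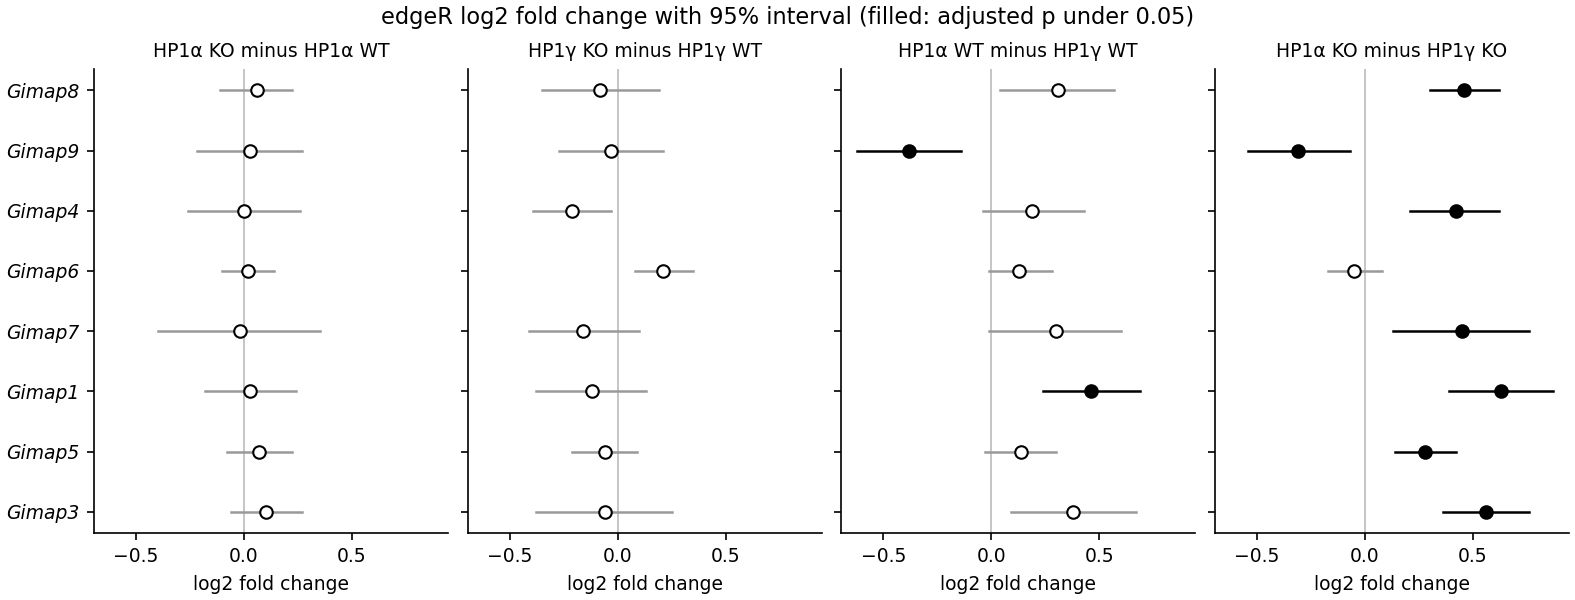
Log2 fold changes of the GIMAP genes from edgeR (points) with 95% intervals (lines) in 4 comparisons, in the order of the genes along the chromosome. Filled points have an adjusted p under 0.05: none in either KO against WT comparison, 2 between the WT groups (12.8% of all genes) and 7 between the KO groups (32.8% of all genes).

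The same line difference was examined in the 8 KO samples, none of which entered the WT comparison, although here the deleted gene differs as well. Of the 8 members, 7 were called, 6 higher and 1 lower in HP1α KO than in HP1γ KO. In this comparison 32.8% of 15020 genes were called, 16% higher and 16.8% lower in HP1α KO. The groups did not overlap for 5 members, all higher in HP1α KO, against 32.3% of all genes in either direction. The mitochondrial share of the counts also separated these groups, at 1.62% to 1.98% in HP1α KO and 2.17% to 2.6% in HP1γ KO, while it overlapped between the WT groups (1.74% to 2.57% and 2.02% to 2.81%), and its part in the result was not tested. The median log2 fold change was 0.43 over the family and 0.01 over all genes, and for the WT groups these were 0.25 and 0.02.

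Gimap1 again had the largest difference, with 169.8, 173, 136 and 152 CPM in HP1α KO and 84.7, 98.0, 108 and 117 CPM in HP1γ KO. The groups were apart and the log2 fold change was 0.63 (SE 0.107, adjusted p = 0.00298 in edgeR). Gimap3 had 798, 798, 710.3 and 884 CPM in HP1α KO and 488, 489, 613 and 577 CPM in HP1γ KO, a log2 fold change of 0.56 (SE 0.0912, adjusted p = 0.00256 in edgeR). Gimap8 had 267, 262, 235 and 281 CPM against 185, 175, 199 and 202 CPM, a log2 fold change of 0.46 (SE 0.0711, adjusted p = 0.00221 in edgeR). These 3 genes kept their call in all 16 alternative analyses, including the omission of each sample.

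Gimap4 had 571, 567, 442 and 603 CPM in HP1α KO and 387, 387, 437 and 426 CPM in HP1γ KO, a log2 fold change of 0.42 (SE 0.0925, adjusted p = 0.0081 in edgeR). HP1α KO 3 was the lowest of its group and lay just above the highest HP1γ KO sample, and the call was lost with limma on both TPM scales (0.30, adjusted p = 0.0686 and 0.0662). Gimap7 had 69.8, 63.5, 45.2 and 64.1 CPM against 41.5, 53.4, 36.8 and 46.6 CPM, with overlap of HP1α KO 3, and a log2 fold change of 0.45 (SE 0.142, adjusted p = 0.0349 in edgeR). Its call was lost with limma on both TPM scales (0.37, adjusted p = 0.127 and 0.124) and also without HP1α KO 1, 2 or 4 or without HP1γ KO 1 or 3, at log2 fold changes between 0.37 and 0.43 and adjusted p-values between 0.0794 and 0.0965. Gimap9 was lower, with 68.5, 71.6, 54.5 and 55.2 CPM in HP1α KO and 85.6, 82.1, 72.9 and 69.3 CPM in HP1γ KO. Its log2 fold change was -0.31 (SE 0.107, adjusted p = 0.0477 in edgeR), and the call was lost without HP1α KO 1, 3 or 4 or HP1γ KO 1, 2 or 3 (log2 fold changes -0.35 to -0.25, adjusted p = 0.0547 to 0.128). In edgeR the call of Gimap9 was also lost without a filter on low counts (-0.28, adjusted p = 0.0603) and with all 16 samples in one fit (-0.31, adjusted p = 0.0503). Gimap6 was the only member not called, at 868, 962, 951 and 954 CPM against 1019.9, 919, 988 and 935 CPM (log2 fold change -0.05, 95% interval -0.17 to 0.08, adjusted p = 0.568 in edgeR). No member passed the fold threshold of 1 on the log2 scale that the study used, in any of the comparisons.

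Gimap5 differed by its unit of measurement. In counts it had 107, 117, 101 and 115 CPM in HP1α KO and 88.1, 90.6, 94.6 and 90.8 CPM in HP1γ KO, with groups apart and a log2 fold change of 0.28 (SE 0.0632, adjusted p = 0.00939 in edgeR). In TPM it had 192, 212, 205 and 229 in HP1α KO and 196, 192, 183 and 198 in HP1γ KO, which overlapped, and the difference on the log2(TPM + 1) scale was 0.12 (adjusted p = 0.17 in limma). The transcript length that counts and TPM imply together, relative to the median gene of the sample, was between 0.33 and 0.393 in the HP1α line and between 0.305 and 0.369 in the HP1γ line. The difference of 0.14 on the log2 scale was larger than that of 95.1% of 8484 genes with at least 200 counts in every sample, and the other members differed by at most 0.05. Gimap5 and Gimap3 share 97.9% of the bases over an alignment of 720 nt, and Gm28053 and Gimap5 99.4% over 160 nt. The estimated counts of Gimap1, Gimap3 and Gimap5 were not whole in any of the 16 samples, which is how reads that fit several transcripts appear, so the division of reads among these genes and Gm28053 is uncertain. Gm28053 itself was between 2.28 and 6.62 CPM and was not called by edgeR in any comparison, though DESeq2 called it between the KO groups.

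Gimap1os had between 18 and 25.8 CPM in all samples and was not called between any groups. Between the KO groups its log2 fold change was -0.15 (SE 0.106, adjusted p = 0.303 in edgeR), where Gimap1 on the other strand was higher in HP1α KO. The kit marks strand, but the strand setting of the count was not given in the sources used here, and reads over the overlap of both genes may then not be told apart.

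Within 3 Mb on either side of the cluster and inside it, the tables held 138 other genes. Of these 44 were tested in the HP1α line and none was called by edgeR, DESeq2 or limma (2 had an unadjusted p under 0.05 in edgeR), and 43 were tested in the HP1γ line, where Cbx3 itself was the only one called. Between the WT groups none of 43 was called by edgeR (6 had an unadjusted p under 0.05) and 1 by DESeq2. Between the KO groups 6 of 43 were called, Cbx3 among them, against 32.8% of all genes, and 4 to 11 when 1 sample was left out. On the Gimap8 side of the cluster, Zfp775, a zinc finger gene, and Lrrc61 were higher in HP1α KO, at 9.9 ± 1.3 against 6.06 ± 1.07 CPM (log2 fold change 0.70, adjusted p = 0.00679) and 31.9 ± 3.58 against 25.3 ± 2.44 CPM (0.33, adjusted p = 0.0261; SD, n = 4, edgeR). Repin1 (-0.07) lies between these genes and AI854703 (-0.14) lies nearer to the cluster than both, and neither Repin1 nor AI854703 was called. Gpnmb (0.52) was also higher, as was Cbx3 (0.76), which is the gene deleted in HP1γ KO, so its difference follows from the design. Zfp398 (-0.30) was lower. ENSMUSG00000121037 (-1.62) was lower as well, but at a very low level (0.25 ± 0.138 against 0.782 ± 0.464 CPM). The median log2 fold change of the 43 neighbours was 0.07 between the KO groups and 0.06 between the WT groups.

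**Figure D4:**
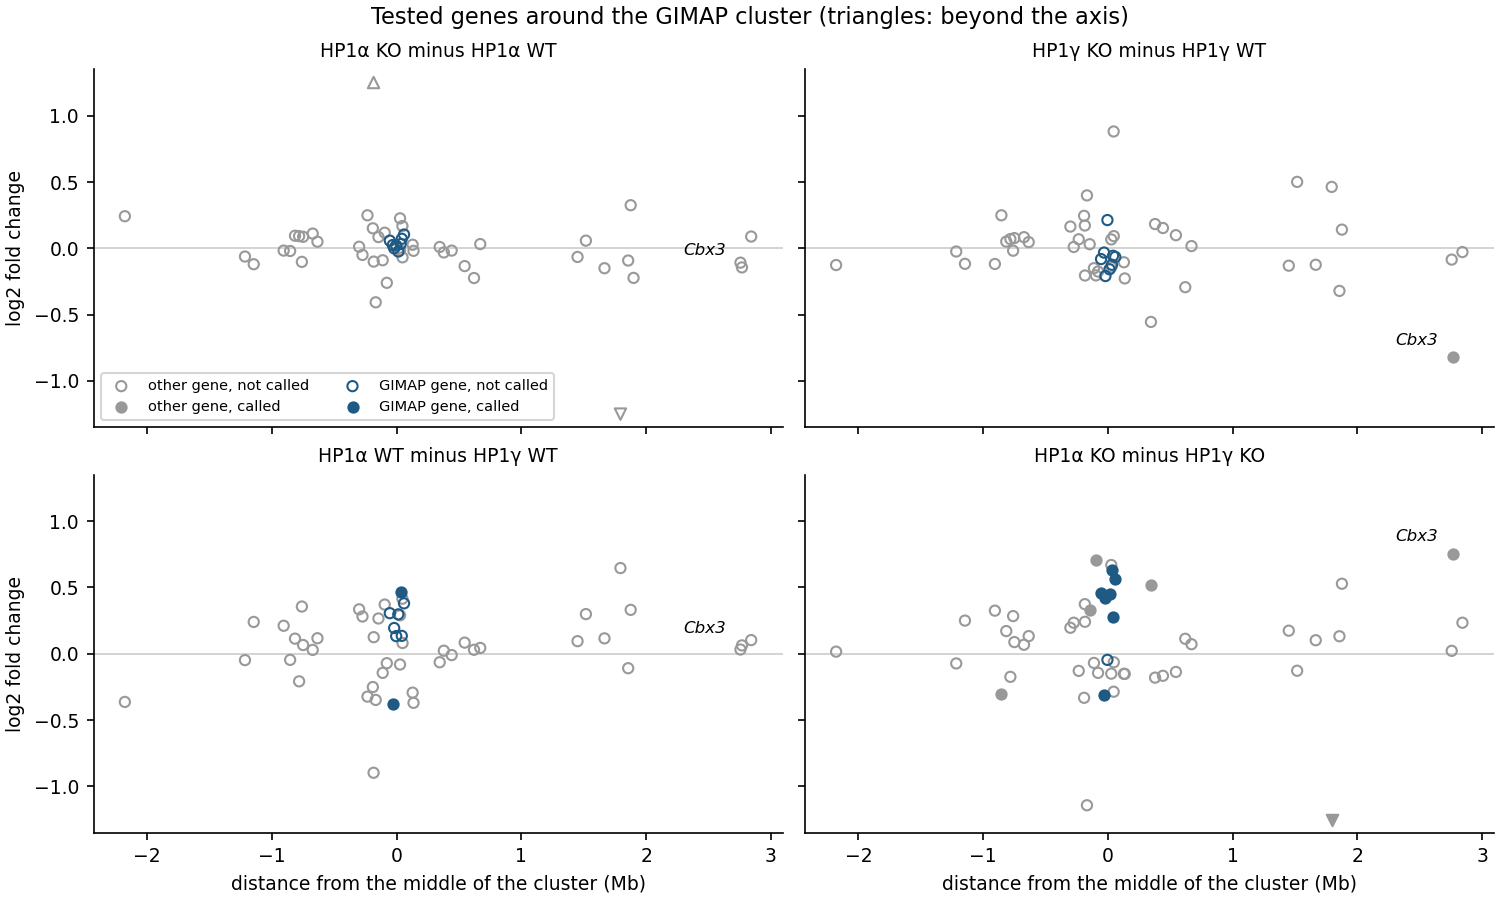
Log2 fold change of each tested gene against its distance in Mb from the middle of the GIMAP cluster in 4 comparisons, with GIMAP genes in blue, other genes in grey and filled symbols for an adjusted p under 0.05. Between the KO groups 7 GIMAP genes and 6 of 43 other genes, Cbx3 among them, are filled. In the HP1γ line only Cbx3, near the right edge, is filled.

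Genes outside the family were counted from lists. Only the list of the BCL-2 family and cell death was made of genes with which GIMAP proteins are studied. The 5 lists held 69 different genes, and edgeR called none of them in either knockout (2 in the HP1α line and 7 in the HP1γ line had an unadjusted p under 0.05). DESeq2 called none in the HP1α line and 3 in the HP1γ line (Gbp2, Gbp6 and Irf4), and limma none. The list counts between the lines are to be read against 12.8% of all genes called between the WT groups (4.55% higher and 8.25% lower in HP1α WT) and 32.8% between the KO groups (16% higher and 16.8% lower in HP1α KO). Of 12 genes of the BCL-2 family and cell death, 2 were higher and 3 lower in HP1α WT than in HP1γ WT (median log2 fold change 0.10 against 0.02 over all genes), and between the KO groups 5 were higher and 3 lower (0.14 against 0.01). The 5 called between the WT groups became 3 with the replicate number as a block and 2 to 5 when 1 sample was left out. Among them Bcl2l11, which encodes the pro-apoptotic protein BIM, was lower in HP1α WT than in HP1γ WT (50.9 ± 3.22 against 85.5 ± 12.4 CPM, log2 fold change -0.75, adjusted p = 0.00312 in edgeR, n = 4) and in HP1α KO than in HP1γ KO (51.2 ± 4.76 against 87.1 ± 15.7 CPM, -0.76, adjusted p = 0.00244). Casp8, an initiator caspase, and the BH3-only gene Bid were higher in both comparisons.

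Of 14 T cell activation genes, 0 were higher and 4 lower in the HP1α line in both the WT and the KO comparison, with medians of -0.34 and -0.32. The 4 were Cd44, Irf4, Icos and Tnfrsf4 in either case, but between the WT groups the count was 1 with the replicate block and 2 to 6 when 1 sample was left out. Irf4, a transcription factor induced by T cell receptor signals, had 152 ± 35.9 CPM in HP1α WT against 316 ± 51.8 CPM in HP1γ WT (log2 fold change -1.06, adjusted p = 0.00569 in edgeR, n = 4) and 171 ± 44.0 CPM in HP1α KO against 408 ± 15.1 CPM in HP1γ KO (-1.25, adjusted p = 0.00113). Cd44, whose protein was part of the sort, differed by -0.35 and -0.32. Of 15 genes of resting and central memory T cells, 0 were higher and 2 lower in HP1α WT, and 3 were higher and 4 lower in HP1α KO. Klf2, a quiescence factor of T cells, was higher in HP1α KO (534 ± 78.0 against 373 ± 51.4 CPM, log2 fold change 0.52, adjusted p = 0.00852 in edgeR, n = 4), whereas S1pr1, the receptor for exit from lymphoid organs, was lower in both comparisons (-0.74 and -0.58). The list of 17 genes for other lymphocyte and interferon-inducible GTPases had 1 member lower in HP1α WT (Gbp3), and 4 higher and 1 lower in HP1α KO, with medians of 0.11 and 0.12. This list includes Rasgrp1, which encodes an exchange factor for Ras and not a GTPase, and which was 1 of the 4 higher genes. Of 15 transcription factors, 1 was lower in HP1α WT (Rbpj), and 3 were higher and 3 lower in HP1α KO. Ets1, whose family binds the ETS core, was higher at 0.20 (1645 ± 100.5 against 1433 ± 47.9 CPM, adjusted p = 0.0224 in edgeR, n = 4) and was not called between the WT groups. Its change was the smallest in size of the 6 factors called between the KO groups. A link to the ETS cores of the windows was not tested.

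How the members varied among the samples of a group was described over the 16 samples by correlating log2 CPM after each group mean had been subtracted. These share library and depth, so no test is given. The coefficient r was 0.47 in the median of 28 pairs of members and ranged from -0.42 (Gimap3 with Gimap9) to 0.90 (Gimap3 with Gimap8). Gimap1, Gimap4 and Gimap5 varied together, with r between 0.73 and 0.76, but other pairs came close. Gimap4 and Gimap7 had an r of 0.75, and Gimap8 had 0.69 with Gimap1 and with Gimap4. Gimap6 and Gimap9 stood apart from most others, with r between -0.16 and 0.49 for Gimap6 and between -0.42 and 0.45 for Gimap9. The mean deviation of the family was highest in HP1γ WT 4 (0.19) and HP1α WT 2 (0.18) and lowest in HP1α KO 3 (-0.19) and HP1α WT 3 (-0.13) on the log2 scale. The 5 genes outside the family with the profile most like that mean were Sec23ip (r = 0.92), Phf11b (0.92), Art2b (0.91), Trip4 (0.90) and Dcaf12 (0.90), out of 15768 genes with a median r of 0.02.

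**Figure D5:**
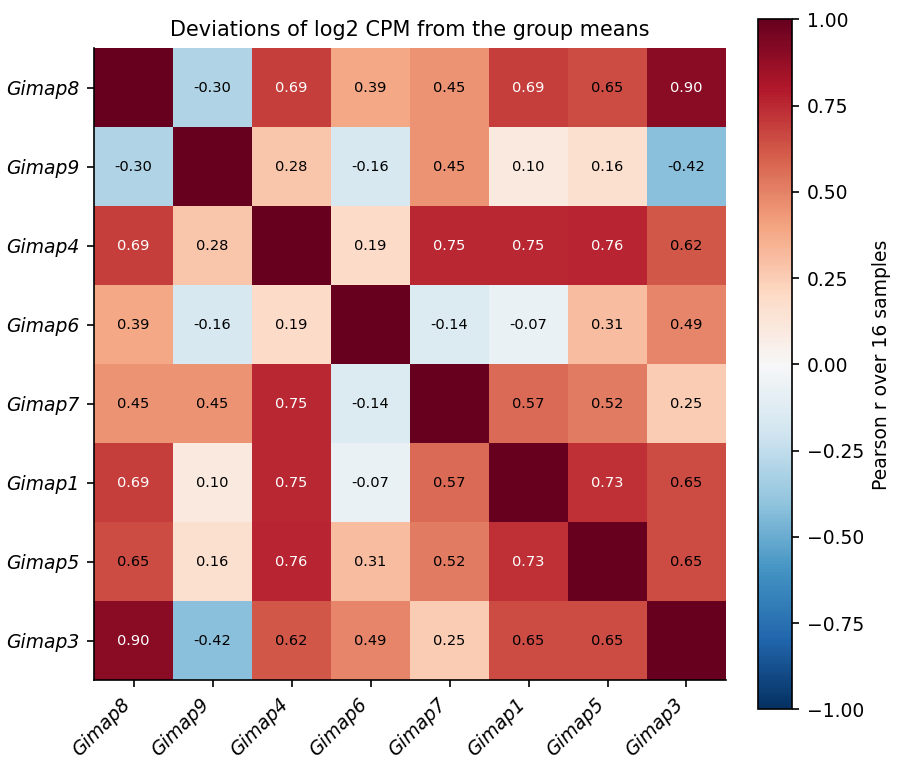
Pearson r between pairs of GIMAP genes over 16 samples after the mean of each group was subtracted from log2 CPM, with genes in chromosomal order and the diagonal left blank of text. Gimap3 and Gimap8, the outermost genes of the cluster, have the highest value (0.90).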

How the data were processed

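The authors used the nf-core pipeline with Trim Galore, STAR (GRCm39, Ensembl annotation) and Salmon. They deposited estimated counts per gene without normalization, of which 11.55% are not whole, and the authors also deposited TPM, which keep no depth. Samples were grouped, and replicates numbered, by the submitters' titles. A treatment label, growth protocol and design text that describe transferred cells do not match the memory cell experiment and were not used. Totals were between 26694045 and 40199637 counts per sample, at which 3 counts are between 7.46e-06% and 1.12e-05% of a sample (counting error only).

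The counts, rounded to whole numbers, were tested with edgeR 4.0.16 in R 4.3.3 (TMM, filterByExpr with a minimum count of 10, glmQLFit, glmQLFTest, Benjamini-Hochberg adjustment over all genes tested). A gene was called at an adjusted p under 0.05. Each comparison used the 8 samples of its groups, except the difference of the KO effects, which used all 16. Alternatives were DESeq2 1.42.0, RLE size factors, no filter (at least 1 count), at least 10 counts in every sample, the replicate number as a block, limma 3.58.1 on log2(TPM + 1) and log2(TPM + 0.1) for genes averaging 1 TPM or more, all 16 samples in one fit, and the omission of each sample. The scripts were tested on simulated data. CPM are TMM-normalized over 16 samples, and correlations used log2 CPM with a prior count of 2.

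The members, the lists and the comparisons were chosen with earlier results of these data known. Named are all members, the other genes at the cluster with a Gimap symbol, Cbx3 and Cbx5, genes past the test within 3 Mb of the cluster, up to 4 called genes per list, defining markers, and the 5 genes most like the family. Gm28053, the share of Gimap6 and the implied length of Gimap5 were added after values were seen. Positions and promoter windows come from GENCODE vM39 (GRCm39), in which 56017 of 56748 genes were found, and which is not the release the authors used. Shared sequence is the longest blastn alignment between transcripts. No 2 replicates of a group were as close as sampling noise allows (24 pairs, chi-square per gene at least 9.88). A study sample that the paper left out could not be tied to a label, and none of the 16 was omitted here. Protein sequences were not used here, and the values of 2 list genes are not reported here.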

Additional observations from a re-analysis of the deposited data

Results flagged for a closer look

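In groups of 4 samples, the highest or lowest value was compared with its nearest neighbour relative to the range of the group, which flags about 1 in 20 groups by chance. Of 32 groups of a GIMAP gene, 3 had such a sample. In HP1γ WT, Gimap1 at 134 CPM and Gimap5 at 107 CPM were highest in the same sample, HP1γ WT 4, which also lay closest to the HP1α line in the first principal component. Without it, the log2 fold change of HP1α WT against HP1γ WT was 0.56 for Gimap1 and 0.20 for Gimap5, in place of 0.46 and 0.14. In HP1α KO, Gimap6 at 868 CPM was lowest in HP1α KO 1, with the other 3 samples between 951 and 962 CPM.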

How the results depend on the processing

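The counts of GIMAP genes called stayed at 0 for both knockouts and for the difference of their effects under all alternatives. Between the WT groups the count was 2, and it was 1 with limma on log2(TPM + 1) or log2(TPM + 0.1) (Gimap1), 3 with DESeq2 or all 16 samples in one fit, and 0 to 3 when 1 sample was left out. It was 0 without HP1α WT 1, HP1γ WT 1 or HP1γ WT 2. Between the KO groups it was 7, against 4 with limma on either TPM scale (Gimap1, Gimap3, Gimap8 and Gimap9), 6 without a filter or with all 16 samples in one fit, and 5 to 7 when 1 sample was left out. Gimap9 was the member lost without a filter and with all 16 samples in one fit. The causes were not tested.

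Replicate numbers did not meet the criterion for pairing, a correlation above 0.1 in every pair. All 4 pairs of KO and WT samples were positive in each line, which is a hint from the data and not from the design. Deviations of samples with the same number correlated at 0.094 to 0.228 between HP1α KO and WT and at 0.003 to 0.153 between HP1γ KO and WT, and 3 of 4 and 1 of 4 KO samples correlated best with the WT sample of their number. Between the lines the values were -0.204 to 0.071. With the replicate number as a block, 0, 0, 1 and 7 GIMAP genes were called in HP1α KO against WT, HP1γ KO against WT, between the WT and between the KO groups, and 0 for the difference of the effects.

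Values that changed sign were all from members that were not called. In the HP1α line Gimap4 was 0.00 with DESeq2, RLE size factors, the block or all 16 samples, and Gimap9 -0.00 with limma on both scales. With limma on both scales, HP1γ KO against WT was 0.02 for Gimap3, 0.00 for Gimap8 and 0.03 for Gimap9, the WT groups differed by -0.02 for Gimap5, and the difference of the effects was -0.03 for Gimap9. When 1 sample was left out, HP1α KO against WT lay from -0.02 to 0.10 for Gimap1, from -0.07 to 0.10 for Gimap4, from -0.00 to 0.05 for Gimap6, from -0.12 to 0.15 for Gimap7 and from -0.05 to 0.08 for Gimap9. HP1γ KO against WT lay from -0.15 to 0.08 for Gimap3, from -0.16 to 0.02 for Gimap8 and from -0.11 to 0.03 for Gimap9, and the difference of the effects from -0.00 to 0.15 for Gimap9.

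HP1γ KO against WT had 49 called genes, 256 with DESeq2, 96 in one fit of 16 samples and 17 or 20 with limma (log2(TPM + 1) or log2(TPM + 0.1)), 31 with at least 10 counts in every sample and 30 to 49 when 1 sample was left out. HP1α KO against WT had 0, but 5 with DESeq2, 3 with limma, 1 without a filter and 0 to 3 when 1 sample was left out. The WT groups had 1896, 577 with the block, 1135 or 1143 with limma and 573 to 2185 without 1 sample. The KO groups ranged from 3350 to 5428. The difference of the effects had 8, 76 with DESeq2, 14 without a filter and 3 or 4 with limma. Among the lists, called activation genes between the WT groups numbered 4, 1 with the block and 2 to 6 without 1 sample, BCL-2 family genes 5, 3 and 2 to 5. Between the KO groups called genes of the list for other GTPases numbered 5, 3 with the block and 1 to 6 without 1 sample. Resting and central memory genes numbered 7, 5 and 3 to 8, and transcription factors 6, 3 and 3 to 8. With 4 samples a group, the interval of a member's log2 fold change in a knockout reached 0.40 in size (Gimap7, HP1α line) or 0.41 (Gimap7, HP1γ line), and effects within these intervals cannot be told from none.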
